A study of Mus musculus with 2 samples.

Results

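Muscle fibre cells were examined in single-cell RNA libraries of E17.5 mouse eye cups, and 540 of the 36146 cells kept were fibre cells. They were chosen by 5 genes of the sarcomere, the repeating unit of striated muscle: *Ttn* (titin, the giant spring of the sarcomere), *Neb* (nebulin, which runs along the thin filament), *Myh3* (embryonic myosin heavy chain), *Mybpc1* (a myosin binding protein) and *Ryr1* (the calcium release channel of skeletal muscle). A fibre cell had at least 0.5% of its unique molecular identifiers (UMIs, each standing for 1 captured RNA molecule) in these genes, at least 4 of the 5 detected, and no UMI of *Pax7*, a factor of muscle stem cells. Levels of those 5 genes in fibre cells are therefore set by the choice of cells and are given only as a description.

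Skeletal muscle fibres are long cells with many nuclei, formed when committed myoblasts fuse. Their cytoplasm is packed with sarcomeres in which myosin thick filaments pull on actin thin filaments anchored at Z-discs, and calcium released from the sarcoplasmic reticulum starts each contraction. Fetal fibres carry embryonic and neonatal myosins that adult isoforms later replace, and the extraocular muscles, which move the eye and insert on the sclera, are known for keeping some developmental myosins and a myosin of their own, *Myh13*, into adult life.

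The study asked how a patient-derived change in *Myrf*, which encodes a transcription factor that acts in the retinal pigment epithelium (RPE), alters the developing mouse eye. Of its 2 libraries, 1 came from *Myrf humWT/humWT* and 1 from *Myrf humdG/humdG* embryos at E17.5, and each was a pool, so each genotype is 1 sample. In both alleles the last exon of mouse *Myrf* was replaced by the human one in all cells of the body, with the frameshift variant in humdG and without it in humWT, on a C57BL/6J background, so humWT is the matched humanized control and neither library is from an unedited mouse. The labels speak of 3 pooled eye cups without cornea, whereas the methods of the study give 3 mice and 6 eyes with the cornea left on. Embryos of both sexes were in each pool, as cells with *Xist* and cells with Y-linked UMIs were found in both libraries.

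The humWT library held 129135207 UMIs in 17421 barcodes and the humdG library 114319529 UMIs in 19565 barcodes. Of these, 17017 and 19129 barcodes passed the limits of over 500 genes and below 15% of UMIs from mitochondrial genes, and are the kept cells. The median kept cell had 3785 UMIs in humWT and 2574 in humdG, and the median fibre cell had 2984 and 2146 UMIs from 1177 and 1055 genes. All fibre cells together held 1605347 UMIs in humWT and 256672 in humdG, so a level in humdG rests on far fewer molecules. The libraries shared 102 barcodes, 93 of them among kept cells and 0 among fibre cells. Below, a level is in CPM, the UMIs of a gene summed over the cells named and scaled to counts per 1e6 UMIs, with an exact Poisson 95% interval. Shares have exact binomial (Clopper-Pearson) intervals, and ratios have exact conditional binomial ones. All of these cover counting error only, and with 1 library per genotype no test between genotypes could be made.

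Mature miRNAs lie within genes that were far higher in fibre cells than elsewhere, and 4 of them are shown because their hosts include *Myh7b*, the first gene in the ranking by fibre bias given below. Mature miRNAs were not measured, since the libraries capture polyadenylated RNA. The sequences are from RefSeq on GRCm38.p6, 5′ to 3′, with the seed (bases 2 to 8) in capitals. The first is at chr2:155622893-155622913 on the plus strand, within *Myh7b* (chr2:155611212-155634307), and the next at chr14:54975710-54975731 on the minus strand, within *Myh7* (chr14:54970684-54994626). The last pair lie at chr1:20679055-20679076 and chr1:20682834-20682855 on the plus strand, within the long noncoding RNA *Gm28653* (chr1:20669882-20684298).
mmu-miR-499-5p: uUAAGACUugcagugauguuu
mmu-miR-208b-3p: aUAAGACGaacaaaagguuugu
mmu-miR-206-3p: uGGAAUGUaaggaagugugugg
mmu-miR-133b-3p: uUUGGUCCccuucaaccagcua
The seeds of the miR-499 and miR-208b strands had the same base at 6 of 7 places, and those of miR-206 and miR-133b at 1 of 7. Both pairs are known as miRNAs of striated muscle. Their hosts are described below with the myosins and the noncoding RNAs.

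Fibre cells were a small share of the eye cup, and a smaller one in humdG. They were 439 of 17017 kept cells in humWT (2.58%, 95% interval 2.35 to 2.83%) and 101 of 19129 in humdG (0.528%, 0.430 to 0.641%). The share in humWT was 4.89 times that in humdG (3.93 to 6.13). Myogenic precursors, here cells outside the gate with a UMI of *Pax7* and one of *Myf5*, *Myod1* or *Cdh15*, were 1.40% and 0.502% of kept cells, a ratio of 2.79 (2.19 to 3.57). Red blood cells were 2.67% and 1.87%, a ratio of 1.43 (1.24 to 1.65). How much muscle stayed on the globe at dissection was not recorded, so genotype, dissection and embryo cannot be told apart in these shares.

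The choice of cells had a sharp edge in a continuous measure. The gate genes took a median of 1.11% of the UMIs of a humWT fibre cell, with an interquartile range of 0.751 to 1.69% and a maximum of 6.38%. In humdG the median was 1.38%, with an interquartile range of 0.796 to 1.96% and a maximum of 5.38%. Of all gate UMIs, 74.3% in humWT and 72.6% in humdG were *Ttn*. Just inside the limit, the lowest shares were 0.50% in humWT and 0.503% in humdG, and just outside it the highest were 0.498% and 0.492%. Between 0.4 and 0.5% there were 82 and 13 cells outside, and between 0.5 and 0.6% there were 50 and 9 inside. All 5 genes were detected in 211 humWT and 39 humdG fibre cells and 4 in 228 and 62, while 169 and 73 cells past the share had only 3 of the 5 and were left out. A *Pax7* UMI removed another 18 and 6 cells. Gate genes were also found at 624 CPM in humWT and 239 CPM in humdG red blood cells, which should lack them, against 12479 and 14785 CPM in fibre cells, and whether these came as free RNA or from cells caught together was not tested.

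Other muscle markers were also high in the gated cells, which describes a choice made on genes expressed with them and is no independent check, and no gene given here places the cells in extraocular muscle. Of 12 further muscle markers, 11 reached 20 UMIs over the fibre cells of both libraries, a filter that favours markers high there, and 11 of the 11 were at least 2-fold higher in fibre cells than in all other kept cells in both libraries, against 4.38% of all genes tested. The other marker, *Chrna1*, had 8 UMIs in humWT and 1 in humdG. Their log2 ratios ran from 1.34 to 4.14 in humWT and from 1.09 to 6.02 in humdG. Against red blood cells the range was 1.33 to 4.65 and 1.28 to 6.97, so these levels lay above those in red blood cells. The 12 markers summed to 2092 CPM in humWT and 2330 CPM in humdG fibre cells, to 424 and 204 CPM in other cells and to 401 and 165 CPM in red blood cells. In cells outside the gate that are rich in short sarcomere transcripts, described further on, they summed to 9118 and 11107 CPM. Those cells were chosen on such transcripts, so this sum describes the choice and does not show where each marker was highest. *Tbx15*, a T-box gene, was at 137 and 191 CPM against 57.3 and 24.8 CPM elsewhere. *Lbx1*, a gene of limb and tongue muscle precursors, had 0 UMIs, and *Myh13* had 1 UMI in each library. The cells are called fibre cells here by their sarcomere genes, with their muscle of origin not tested.

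Most measured genes of the contractile apparatus were higher in fibre cells than in the rest of the eye cup, beyond the genes that chose them. Over all 9587 genes with at least 20 fibre UMIs, 420 (4.38%) were at least 2-fold higher in fibre cells in both libraries, and the median log2 ratio was -0.12 in humWT and -0.16 in humdG. Of 99 genes of the contractile apparatus outside the gate, 77 had 20 UMIs, and 64 of those 77 were past 2-fold in both libraries, with a median log2 ratio of 2.50 in humWT and 3.36 in humdG. The gate used this contrast, so the counts describe the cells and support nothing. Among the 15 genes with the largest ratio of those with at least 100 fibre UMIs, ranked by the lower of the 2 libraries, were *Myh7b*, *Mlip*, *Trim55*, *Vwa3b*, *Ryr1*, *5430431A17Rik*, *Alpk3*, *Mybpc1*, *Mypn*, *Myom3*, *Ttn*, *Hectd2os* and *Myo18b*, of which *Ryr1*, *Mybpc1* and *Ttn* are gate genes. Among the others, *Trim55* is a ubiquitin ligase of muscle, *Alpk3* a kinase-like protein of the M-band, and *Mypn* binds the Z-disc.

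**Figure D1:**
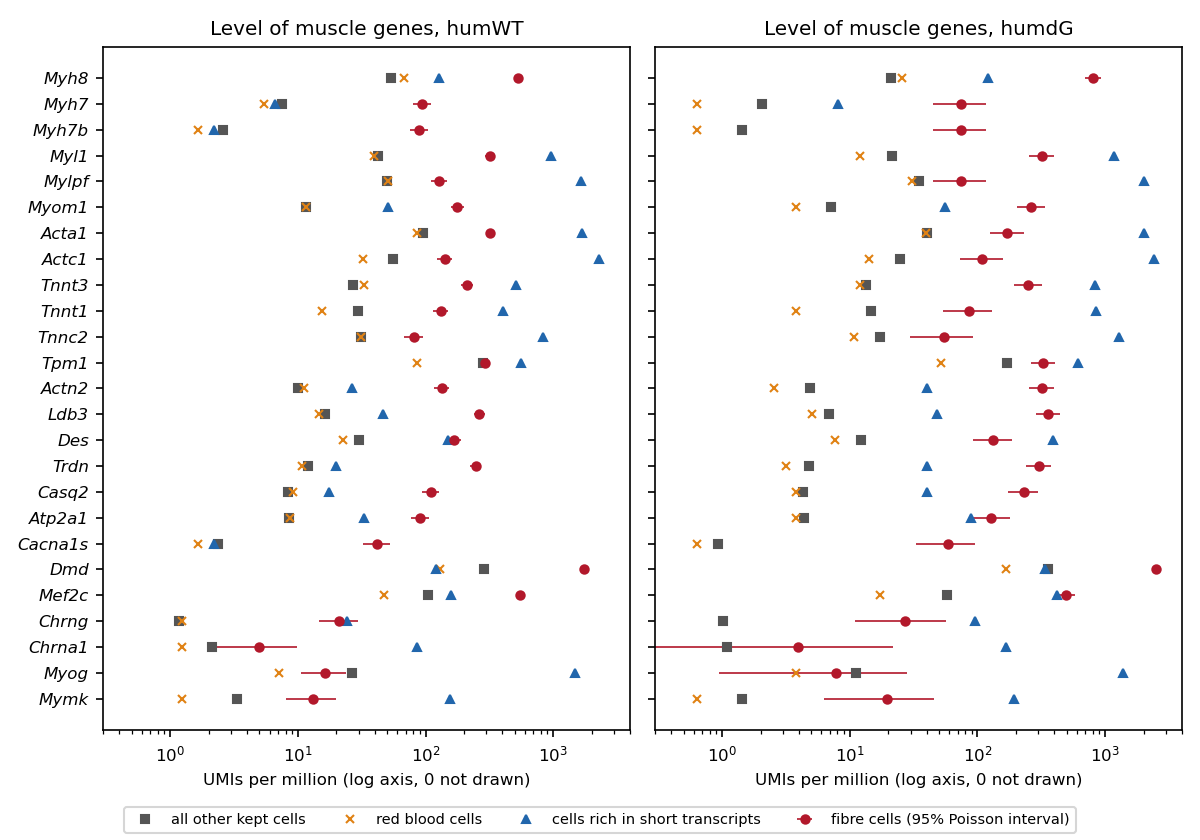
Levels of 25 muscle genes in CPM on a log axis, for fibre cells with exact Poisson 95% intervals, other kept cells, red blood cells and cells outside the gate rich in short sarcomere transcripts such as *Acta1*, in each library. A level of 0 is not drawn. Most genes sit above the other and red blood cells in fibre cells, whereas *Myog*, *Mymk* and *Chrna1* sit far higher in the cells rich in short transcripts.

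The thick filament was led by developmental myosins. Of 14 genes of the thick filament and M-band with enough UMIs, 12 were past 2-fold higher in both libraries, with median log2 ratios of 3.11 and 4.53. *Myh8*, the neonatal myosin, was at 533 CPM (498 to 570) in humWT and 803 CPM (697 to 920) in humdG fibre cells, against 53.2 and 20.9 CPM in other cells. *Myom1*, which crosslinks thick filaments at the M-band, was at 177 and 265 CPM against 11.5 and 7.07 CPM.

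Slow myosins were a minor part, and adult fast myosins were at or near 0. *Myh7*, the slow myosin of type I fibres and the host of miR-208b, was at 93.4 CPM in humWT and 74.0 CPM in humdG fibre cells, against 7.46 and 2.07 CPM elsewhere. *Myh7b*, the host of miR-499 and a myosin of slow and extraocular muscle, was at 89.1 and 74.0 CPM against 2.57 and 1.42 CPM, log2 ratios of 5.12 and 5.71. Of 2550 humWT and 471 humdG UMIs over 8 myosin heavy chains, *Myh3* took 54.0% (52.0 to 55.9%) and 46.9% (42.3 to 51.5%), a share raised by its place in the gate. *Myh8* took 33.6% (31.7 to 35.4%) in humWT and 43.7% (39.2 to 48.4%) in humdG, and these shares too depend on the *Myh3* part of the total. *Myh7* took 5.88% and 4.03%, *Myh7b* 5.61% and 4.03%, and *Myh2*, an adult fast myosin, 0.824% and 0.637%. *Myh1* had 2 UMIs in each library, and *Myh4* had 1 in humWT and 0 in humdG.

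**Figure D2:**
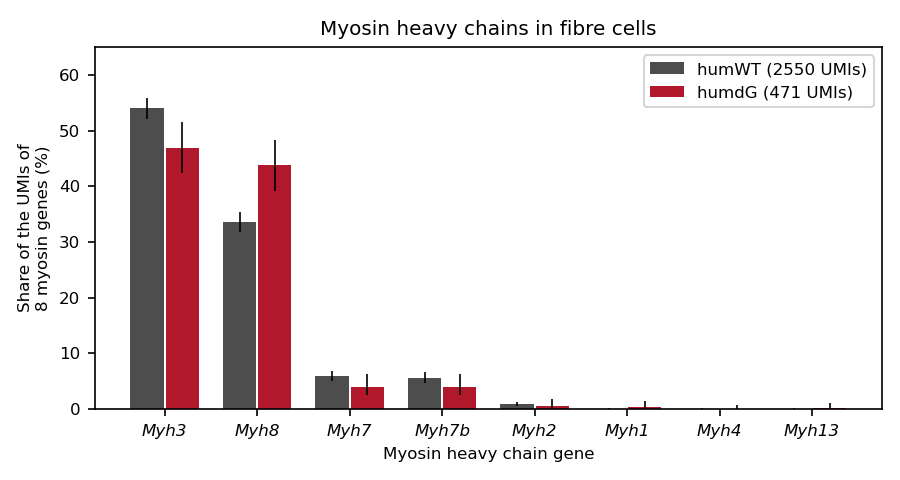
Share of the UMIs of 8 myosin heavy chain genes in fibre cells, in percent, for each gene and library, with exact binomial 95% intervals. *Myh3* and *Myh8* hold most UMIs in both libraries, *Myh7* and *Myh7b* a few percent each, and *Myh1*, *Myh4* and *Myh13* almost none.

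Many single fibre cells held both developmental myosins, of which *Myh3* helped to choose the cells. UMIs of both *Myh3* and *Myh8* were found in 261 of 439 humWT cells (59.5%) and 49 of 101 humdG cells (48.5%), only *Myh3* in 115 and 33, only *Myh8* in 30 and 13, and neither in 33 and 6. *Myh7* or *Myh7b* was found in 130 humWT (29.6%) and 21 humdG cells (20.8%), and 119 and 20 of these also held *Myh3* or *Myh8*. In red blood cells, which should lack both, *Myh3* was found in 31.3% of humWT and 10.9% of humdG cells and *Myh8* in 29.1% and 8.68%, against 85.6% and 81.2%, and 66.3% and 61.4%, of fibre cells. At this depth a cell without a UMI cannot be taken as lacking the transcript. Slow and fast isoforms of muscle genes were both counted in most of the cells that could be read for them. Besides sarcomere genes, the 2 lists hold genes of the calcium store such as *Casq2* (slow) and *Casq1* (fast). The most abundant slow member in fibre cells was *Tpm3* in humWT, at 232 CPM, and *Casq2* in humdG, at 230 CPM. How far single members, or their use outside muscle, set the slow share was not tested. In the 84 humWT and 10 humdG fibre cells with at least 10 UMIs of slow or fast isoforms, the median slow share was 50% in each, with an interquartile range of 37.2 to 69.4% and 42.4 to 76.7%. Slow isoforms were over 80% in 11 and 1 of these cells and under 20% in 8 and 1. Pooled over all fibre cells they took 48.0% (46.2 to 49.9%) in humWT and 48.3% (43.8 to 52.8%) in humdG, against 65.3% and 72.8% in all other cells. Red blood cells, which should lack both kinds, held 162 CPM of slow and 194 CPM of fast isoforms in humWT and 122 and 82.8 CPM in humdG, beside 894 and 967 CPM, and 919 and 986 CPM, in fibre cells. A cell with UMIs of both kinds is therefore not shown to express both.

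The thin filament was higher too, but its most abundant short transcripts were modest. Of 18 thin filament genes, 14 were past 2-fold higher in both libraries, with median log2 ratios of 2.13 and 2.52. *Acta1*, the skeletal muscle actin, was at 322 CPM (295 to 351) in humWT and 171 CPM (125 to 230) in humdG fibre cells, against 96.0 and 40.2 CPM in other cells and 85.6 and 39.5 CPM in red blood cells. A UMI of *Acta1* was found in 64.0% of humWT and 29.7% of humdG fibre cells, at median depths of 2984 and 2146 UMIs, and in 33.9% and 14.0% of red blood cells, at 4604 and 3820 UMIs. Thinned to 1000 UMIs per cell, which left out 1 humdG fibre cell, the shares were 31.9% and 13.0% in fibre cells and 11.2% and 5.0% in red blood cells. *Tnnt3*, the fast troponin T, was at 212 and 249 CPM against 26.8 and 13.5 CPM in other cells, and *Tnnt1*, the slow one, at 131 and 85.7 CPM against 29.7 and 14.8 CPM.

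Z-disc genes followed the thick filament. Of 25, 21 were past 2-fold higher in both libraries, with median log2 ratios of 3.06 and 4.42. *Actn2*, the actinin that anchors thin filaments, was at 134 CPM (117 to 153) in humWT and 319 CPM (254 to 397) in humdG fibre cells, against 10.1 and 4.91 CPM in other cells. *Ldb3*, a PDZ protein bound to actinin, was at 264 and 358 CPM against 16.2 and 6.88 CPM. *Tcap*, which caps titin at the Z-disc, was at 51.1 CPM in humWT and 7.79 CPM in humdG, the latter from 2 UMIs.

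Genes that couple excitation to contraction formed the other well filled group. Of 20, 17 were past 2-fold higher in both libraries, with median log2 ratios of 2.17 and 2.85. *Trdn* (triadin), which links the calcium store to the release channel, was at 247 CPM (224 to 273) and 304 CPM (240 to 379), against 12 and 4.83 CPM in other cells. It was detected in 44.6% of humWT and 41.6% of humdG fibre cells and in 4.0% and 1.4% of red blood cells. *Ryr3*, a second calcium release channel, was at 236 and 584 CPM against 19.6 and 20.4 CPM, and *Cacna1s*, the voltage sensor, at 41.7 and 58.4 CPM against 2.36 and 0.928 CPM. *Dmd* (dystrophin), which ties the cytoskeleton to the membrane, was at 1757 and 2505 CPM against 289 and 360 CPM, and 12 of 19 genes of the dystrophin complex and membrane were past 2-fold in both libraries.

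Junction, fusion and regulatory genes were less uniformly higher. Of 12 neuromuscular junction genes 6 were past 2-fold in both libraries, led by *Colq*, the collagen tail of acetylcholinesterase, at 54.2 and 101 CPM against 2.58 and 1.58 CPM. *Chrng*, the fetal subunit of the acetylcholine receptor, had 34 UMIs in humWT and 7 in humdG (21.2 and 27.3 CPM), whereas *Chrne*, which replaces it after birth, had 0 in both. A count of 0 allows up to 3 UMIs in each library. Of 14 genes of fusion and adhesion 6 were past 2-fold higher and 1 was past 2-fold lower, where 394 of all genes tested (4.11%) were past 2-fold lower in both libraries. Of 14 regulators 6 were past 2-fold higher, among them *Mef2c*, a factor of muscle genes, at 553 and 491 CPM against 105 and 57.8 CPM, and *Sox6*, a repressor of slow fibre genes, at 273 and 339 CPM against 49.0 and 34.9 CPM. *Myog* (myogenin), which drives myoblasts to differentiate, was not higher, at 16.2 CPM from 26 UMIs and 7.79 CPM from 2 UMIs against 26.7 and 11.1 CPM. It was detected in 5.9% of humWT and 2.0% of humdG fibre cells against 3.5% and 1.4% of red blood cells.

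Of 20 metabolic genes 9 were past 2-fold higher in fibre cells in both libraries, with median log2 ratios of 0.92 and 0.47. *Ckm*, the muscle creatine kinase, was at 90.3 and 101 CPM against 25.2 and 10.3 CPM in other cells, and *Pygm*, the muscle glycogen phosphorylase, at 41.7 and 77.9 CPM against 6.46 and 3.96 CPM. *Gapdh*, a glycolytic enzyme used in all cells, was lower in fibre cells than elsewhere, at 477 and 908 CPM against 897 and 1190 CPM.

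Markers of retina, RPE, vessels and blood in the eye cup, blood excepted in humdG, were lower in fibre cells than in all other cells. Summed markers of retina were at 731 CPM in humWT and 1200 CPM in humdG fibre cells, led by *Pax6*, against 782 and 1502 CPM in all other cells and 290.0 and 652 CPM in red blood cells. RPE markers, led by *Dct*, were at 866 and 456 CPM against 1307 and 814 CPM in other cells and 356 and 229 CPM in red blood cells. Haemoglobin and other blood markers were at 12344 and 14988 CPM against 13209 and 11580 CPM in other cells, so only in humdG did fibre cells hold more. Vessel markers were at 289 and 234 CPM against 664 and 440 CPM. The parts of free RNA and of cells caught together in these sums were not tested.

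Imprinted and noncoding genes gave some of the highest levels after the gate. Of 10 tested on that list, which also holds protein-coding genes such as *Cdkn1c*, 3 were past 2-fold higher in both libraries. Another 2 were past 2-fold lower, and over all genes tested these shares were 4.38% and 4.11%. The 3 higher ones came from 1 stretch of chromosome 12 that holds maternally expressed genes. *Meg3* was at 2878 CPM in humWT and 3643 CPM in humdG fibre cells, against 912 and 490 CPM in other cells and 153 and 86.0 CPM in red blood cells. *Rian* was at 1633 and 2310 CPM against 281 and 144 CPM, and *Mirg*, the host of 26 mature miRNA entries, at 309 and 362 CPM against 40.4 and 21 CPM. *H19*, a growth-linked imprinted RNA, was lower than elsewhere, at 986 and 413 CPM against 1506 and 639 CPM. *Gm28653*, the host of miR-206 and miR-133b, which was singled out after its values were seen, was at 356 and 456 CPM against 18.7 and 9.24 CPM. The RNA *5430431A17Rik* (chr7:44473538-44486138, GRCm38) was at 430 and 697 CPM against 14.5 and 9.67 CPM, and was found in 51.0% and 55.4% of fibre cells against 2.4% and 1.1% of red blood cells.

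Cells with the most short sarcomere transcripts were not the fibre cells. The 10 transcripts *Acta1*, *Actc1*, *Tnnt1*, *Tnnt3*, *Tnni1*, *Tnni2*, *Myl1*, *Mylpf*, *Tnnc1* and *Tnnc2*, chosen after seeing the data, made up at least 0.5% of the UMIs of 98 humWT and 41 humdG kept cells. Of these, 8 (8.16%) and 1 (2.44%) were in the fibre set, which is 1.82% and 0.990% of the fibre cells. At 1% or more there were 27 and 22 cells with 0 in the fibre set, and *Pax7* had removed 1 of them. Leaving out that *Pax7* cell, which was in humdG, the 90 humWT and 39 humdG cells outside the gate are called short-rich cells here. They held a median of 0.741% and 1.06% of short transcripts and 0.114% and 0.0720% of gate genes, and fibre cells a median of 0.144% and 0.106% of short transcripts. For each UMI of *Acta1* there were 28.8 UMIs of *Ttn* in humWT and 62.6 in humdG fibre cells, 0.444 and 0.538 in short-rich cells, and 5.42 and 4.53 in red blood cells. Fibre cells were chosen in part on *Ttn* and short-rich cells in part on *Acta1*, so the ratios in these sets describe the choice and are no test. Red blood cells should lack both transcripts, and their ratio lay between those of fibre and short-rich cells. The short-rich share of kept cells, 0.529% and 0.204%, was 2.59 times as large in humWT (1.76 to 3.88).

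**Figure D3:**
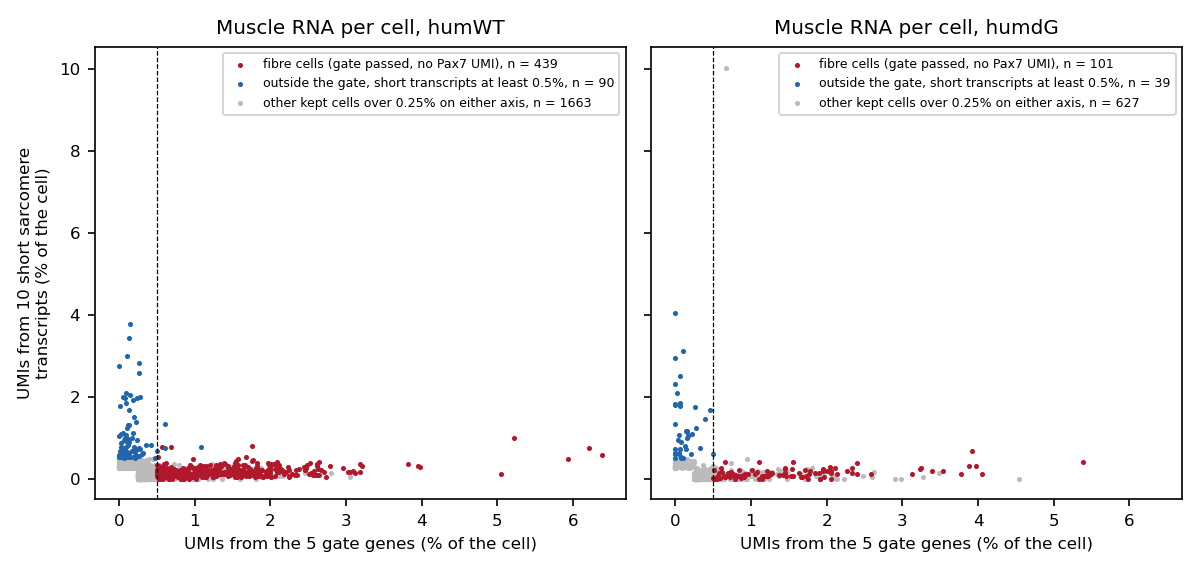
Each point is a cell, with the percent of its UMIs in the 5 gate genes on one axis and in 10 short sarcomere transcripts on the other, by library. Fibre cells and short-rich cells lie along different axes, and 8 humWT and 1 humdG fibre cells pass 0.5% on both. Cells of neither set are drawn only where they pass 0.25% on 1 of the axes.

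Genes of early differentiation and fusion were far higher in short-rich cells than in fibre cells. *Myog* was at 1470 CPM in humWT and 1380 CPM in humdG short-rich cells. *Mymk* (myomaker), needed for myoblast fusion, was at 156 and 193 CPM against 13.1 and 19.5 CPM in fibre cells. *Mymx* (myomixer), its partner, was at 522 and 594 CPM and had 0 UMIs in the fibre cells of both libraries. *Cdkn1c*, an inhibitor of the cell cycle, was at 6303 and 7231 CPM against 335 and 288 CPM, and *Chrna1*, the receptor's alpha subunit, at 85.8 and 169 CPM against 4.98 and 3.90 CPM. In contrast, *Mlip* and *Myh7b* had 2.20 CPM each in humWT short-rich cells and 0 UMIs in humdG ones.

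The genomic span of a gene moved with which of the sets held it. Fibre cells were chosen mostly on *Ttn*, which spans 279 kb, and short-rich cells on short transcripts. Leaving out the genes used does not undo this, so the ratios between these sets describe the choice and are no test. The short-rich cells of humdG held only 124603 UMIs. Over 86 muscle genes outside the gate and the 10 short transcripts, the median log2 ratio of fibre to short-rich cells in humWT was 0.14 for genes under 10 kb, 0.32 from 10 to 30 kb, 2.00 from 30 to 100 kb and 2.09 over 100 kb. In humdG it was -1.78, -0.04, 1.25 and 2.43. All 9570 genes with a span gave -0.71, 0.01, 0.66 and 1.36 in humWT and -0.38, -0.04, 0.34 and 0.75 in humdG, so long genes were higher in fibre cells also outside the muscle lists. Against all other cells the muscle genes gave no such order, with 2.47, 2.22, 3.39 and 1.91 in humWT and 2.58, 3.35, 4.90 and 2.58 in humdG. All genes did, with -0.90, -0.39, 0.03 and 0.43 in humWT and -0.53, -0.26, -0.02 and 0.16 in humdG, so that long genes were higher in fibre cells against the rest of the eye cup too, and the part of gene span in the fibre to other ratios of single genes was not tested. The shortest and the longest class held only 16 and 18 muscle genes. *Gm42418*, a transcript that overlaps ribosomal RNA, took 23.8% of fibre UMIs in humWT and 14.9% in humdG, against 9.61% and 8.03% in other cells and 16.7% and 11.3% in red blood cells. Mitochondrial transcripts took a median of 2.97% and 2.02%. Whether fibre cells are whole cells, fragments or nuclei was not tested.

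**Figure D4:**
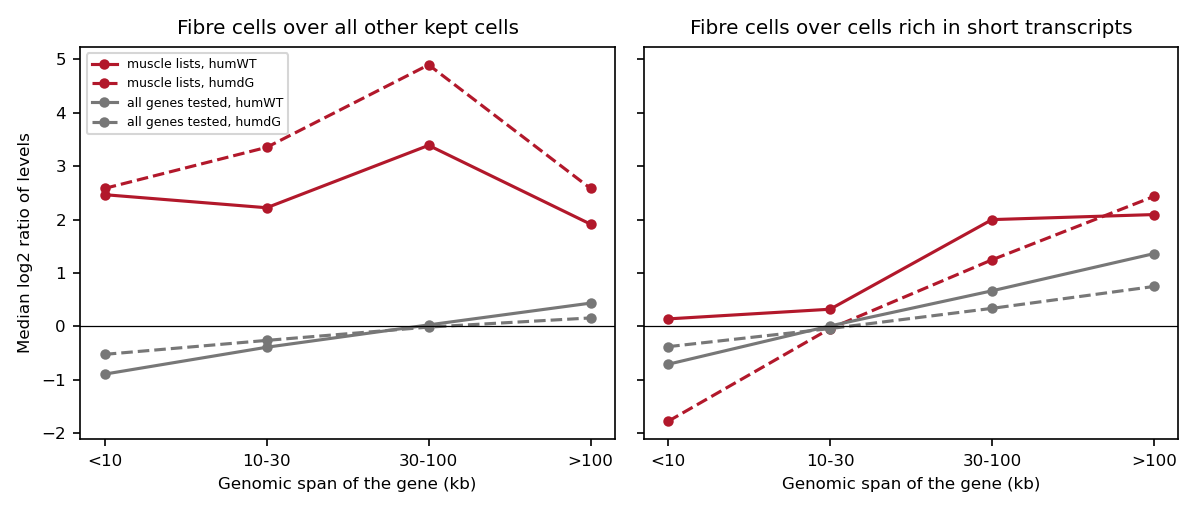
Median log2 ratio of fibre cells to other kept cells and to short-rich cells, for muscle list genes (86) and all genes, by class of genomic span in kb and by library. The ratio to short-rich cells is higher in the classes of long genes for both sets of genes, and the ratio to other cells is above 0 in all classes of muscle genes. Fibre cells were chosen mostly on the long gene *Ttn* and short-rich cells on short transcripts, so these ratios describe the choice.

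Promoters of the contractile genes were searched for motifs of muscle factors, as these genes were high together. RefSeq windows of 300 bases, from 250 before to 50 after each start on GRCm38.p6, were found for 75 of the 99 apparatus genes (93 promoters), and both strands were searched. CAGCTG, an E-box bound by myogenic factors, was in 31 (33.3%) of these promoters against 16.3% of all 32807. The general E-box CANNTG, which includes it, was in 76 (81.7%) against 72.3%. CATTCC, the letters of the MCAT element, was in 28 (30.1%) against 14.7%. The MEF2 site was in 6 (6.45%) against 0.558%, among them those of *Clcn1*, *Klhl41*, *Synpo2*, *Synpo2l* and *Xirp2*. Of the 9 promoters of the 12 most fibre-biased genes outside the gate, 2 held CAGCTG, 3 CATTCC and 0 the MEF2 site. These matches are a description of letters and not of binding. To show the site, 30 bases are given around it on the gene's strand, with the 10 bases of the match in capitals, for 2 genes: *Klhl41*, a stabilizer of thin filament proteins (chr2:69670047-69670076, plus strand), and *Xirp2*, an actin-binding protein of the Z-disc and junctions (chr2:67445918-67445947, plus strand).
Klhl41: gagccggtgtCTATATTTAGccggtgggat
Xirp2: agctcagttcCTAAAAATAGgtgctaggtt
The matches began 63 and 74 bases before the start. *Klhl41* was at 28.7 CPM in humWT and 46.8 CPM in humdG fibre cells against 6.54 and 2.97 CPM elsewhere. *Xirp2* was at 34.9 and 27.3 CPM against 3.04 and 0.866 CPM.

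Between genotypes, contractile genes of fibre cells had about the same ratio as genes at large. The gate asked for the same share of sarcomere UMIs in both libraries, so such ratios depend in part on the choice of cells. Over all genes tested the median log2 ratio of humdG to humWT in fibre cells was 0.17, and 977 (10.2%) were at least 2-fold higher and 975 (10.2%) at least 2-fold lower. Of those past 2-fold, 50.1% were higher with the total of UMIs as scale, but 28.5% with the median of gene ratios, which moved the median of all genes to -0.06, and 35.2% without *Gm42418* and *AY036118*, which moved it to 0.01. For the 77 apparatus genes the median was 0.16, a difference from that of all genes of -0.0083, which these scalings cannot change since they shift every gene alike, with 7 genes past 2-fold higher and 6 lower. Among the genes with at least 100 UMIs, 154 of 2857 (5.39%) were past 2-fold higher and 181 (6.34%) lower. Thick filament, thin filament, Z-disc and coupling genes had medians of -0.11, -0.27, -0.07 and 0.45. Over the alternatives run, the first 3 changed sign, with ranges of -0.54 to 0.51, -0.50 to 0.28 and -0.30 to 0.74, and coupling genes stayed above 0, at 0.21 to 0.89. Thinned to 1000 UMIs per cell, however, coupling genes were below genes at large, with a median of 0.21 against 0.26 for all genes. The apparatus median depended on which cells were taken, with 0.59 in cells with 5 of 5 gate genes (a difference from all genes of 0.40) and -0.16 in cells with a Y-linked UMI (a difference of -0.37).

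In all other cells the same genes were lower in humdG. The median of the apparatus there was -0.96, against 0.06 for all genes. Of 44 apparatus genes with at least 100 fibre UMIs, 41 (93.2%) had a higher humdG to humWT ratio in fibre cells than in the other cells, against 1690 of 2857 genes (59.2%). Gate genes in red blood cells likewise went from 624 CPM in humWT to 239 CPM in humdG, while the fibre share went from 2.58% to 0.528%, and the part of free RNA in the levels of other cells was not tested. The gate asked for the same share of gate genes in both libraries. The other cells include precursors (238 in humWT and 96 in humdG) and short-rich cells (90 and 39), which it left out. The contrast between fibre and other cells depends on this choice and is no test.

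**Figure D5:**
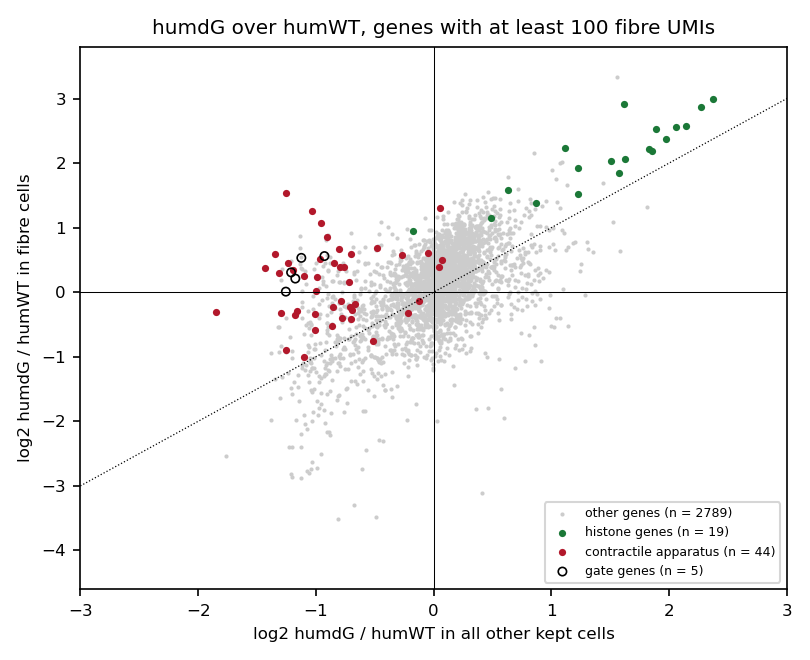
Log2 ratio of humdG to humWT in fibre cells against the same ratio in all other kept cells, for 2857 genes with at least 100 fibre UMIs, marking apparatus genes (44), histones (19) and gate genes (5). Most apparatus genes lie above the dotted line of equal ratios, near 0 in fibre cells and below 0 in other cells, and all 19 histones lie above 0 in fibre cells and above the line. Fibre cells of both libraries were chosen on sarcomere genes, so the place of the apparatus genes is no test.

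Within the apparatus, some genes stood apart from the median. *Actn2* had a log2 ratio of 1.25 (0.87 to 1.63), *Ryr3* of 1.31 (1.03 to 1.58), *Smpx*, a small muscle protein, of 1.53 (0.91 to 2.12), and *Casq2*, the calcium-binding protein of the store, of 1.06 (0.61 to 1.49). *Casq1* and *Lmod2*, which lengthens thin filaments, were also past 2-fold higher, on 8 and 10 humdG UMIs. On the lower side *Tcap* had -2.71 (-5.78 to -0.81) from 82 and 2 UMIs, and *Tnnc1*, the slow troponin C, -1.08 (-2.24 to -0.11) from 119 and 9. The other lower genes, *Ankrd1*, *Ankrd23*, *Bag3* and *Sln*, had 1 or 2 humdG UMIs and intervals that spanned 0. *Acta1* had -0.91 (-1.39 to -0.46), although in other cells it was -1.25. The 10 short transcripts summed to 1536 CPM in humWT and 1212 CPM in humdG fibre cells, beside 334 and 141 CPM in red blood cells. *Myh8* had 0.59 (0.36 to 0.81), and *Dmd*, which is outside the apparatus lists, had 0.51 (0.39 to 0.64), both short of 2-fold.

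Histone genes had higher ratios in fibre cells as in other cells, and the sum of metabolic genes was likewise higher in both. The 10 highest ratios among genes with at least 100 UMIs were *Neurog2* and 9 histone genes. All 47 histone genes tested were higher in humdG fibre cells, 44 of them past 2-fold, with a median log2 ratio of 2.28, and the median in other cells was 1.61. Summed over the list, histones went from 3584 CPM in humWT to 13578 CPM in humdG fibre cells, and from 2134 to 6142 CPM in red blood cells. Markers of dividing cells moved the same way, as 10 of 10 were higher in humdG fibre cells, 5 of them past 2-fold. Among the 9587 genes tested these numbers were 5681 and 977. The markers of dividing cells had a median of 0.96 and a sum of 726 CPM in humWT and 1301 CPM in humdG. Their sum was 369 and 630 CPM in red blood cells, and the part of dividing cells in the histone ratios was not tested. *Hist2h2bb*, a histone H2B gene, was at 43.6 CPM in humWT and 347 CPM in humdG fibre cells, and *Hist1h4h*, a histone H4 gene, at 136 and 635 CPM. Histone mRNAs mostly lack a poly(A) tail, so their capture by this assay differs from that of other genes. *Neurog2*, a factor of retinal neurogenesis, had 79 humdG UMIs, of which 56 came from 1 cell, and its log2 ratio moved from 3.33 to 1.62 without the deepest fibre cell of each library. For *Hist1h2bn*, with 49.4% of its humdG UMIs in 1 cell, it moved from 2.86 to 1.94. Of 20 metabolic genes 4 were past 2-fold higher and 1 lower, against 10.2% of all genes tested in each direction. Their median was 0.58 in fibre and -0.22 in other cells. Over the alternatives run it ranged from 0.35 to 1.20 in fibre cells. Their sum was nevertheless higher in humdG in every set, at 3173 CPM in humWT and 6004 CPM in humdG fibre cells, 4568 and 6884 CPM in other cells and 1748 and 2938 CPM in red blood cells. *Ckb*, the brain creatine kinase, was at 676 and 1543 CPM, and *Tpi1*, a glycolytic enzyme, at 176 and 425 CPM, but both were higher in other cells as well (log2 0.82 and 0.69). The 2 humdG fibre cells with at least 10000 UMIs held 9.99% of all humdG fibre UMIs, and the 10 humWT ones 8.26%.

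Collagen and fibroblast genes had lower ratios. The 10 lowest ratios, not all of them of connective tissue genes, were those of *Col4a4*, *Lrmda*, *Dkk2*, *Epha6*, *Pdgfra*, *Fap*, *Rhoj*, *Itsn2*, *Col14a1* and *Prdm16*. Each had 1 to 7 humdG UMIs. *Pdgfra*, a receptor of mesenchymal cells, had 115 humWT and 2 humdG UMIs, a log2 ratio of -3.20 (-6.26 to -1.31), and *Col14a1*, a fibril-associated collagen, 342 and 7 UMIs, a ratio of -2.97 (-4.29 to -1.91). In humdG their fibre levels, 7.79 and 27.3 CPM, were below the 8.28 and 42.7 CPM of red blood cells, as were those of *Col4a4*, *Lrmda*, *Dkk2*, *Epha6* and *Rhoj*. Of 38 collagen genes 35 were lower in humdG, 25 of them past 2-fold. Of all 9587 genes tested, 3906 were lower and 975 (10.2%) past 2-fold lower. The collagens had a median of -1.16 in fibre and -1.02 in other cells. *Col1a1* was at 1701 and 604 CPM in fibre cells and at 5352 and 2316 CPM in other cells. Fibroblast markers summed to 5207 CPM in humWT and 1921 CPM in humdG fibre cells, to 15247 and 6818 CPM in other cells, and to 3128 and 1257 CPM in red blood cells. All 11 fibroblast markers tested were lower in humdG fibre cells, and 10 of them were past 2-fold, against 3906 and 975 of the 9587 genes tested. Macrophage markers summed to 139 and 19.5 CPM in fibre cells, and *C1qa*, *C1qb*, *Csf1r* and *Tyrobp* had 0 humdG UMIs. The part of these cells and of their free RNA in the collagen ratios was not tested.

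*Myrf*, the edited gene, was scarce in fibre cells. It had 32 UMIs in humWT (19.9 CPM) and 2 in humdG (7.79 CPM), against 17.2 and 7.79 CPM in other cells, with a log2 ratio of -1.36 (-4.46 to 0.62). Both alleles carry human sequence in the last exon, which a mouse reference does not hold, so these counts check neither label. The paper calls the 3′ untranslated sequence endogenous in its results and human in its methods. Of the imprinted RNAs, *Meg3* and *Rian* had log2 ratios of 0.34 (0.24 to 0.44) and 0.50 (0.37 to 0.63) in fibre cells and -0.90 and -0.96 in other cells, while *H19* was lower in both, at -1.26 and -1.24. *Cdk8*, a kinase of the Mediator complex, was at 6833 and 14556 CPM in fibre cells, at 2796 and 8052 CPM in other cells, and at 5178 and 11487 CPM in red blood cells. Cells with *Xist* and no Y-linked UMI were 17.3% of humWT and 33.7% of humdG fibre cells, and those with only Y-linked UMIs 24.8% and 14.9%, beside 13.8% and 29.3%, and 36% and 19.4%, of other cells, so the mix of sexes differed between the pools. The part of sex in these ratios cannot be told apart from genotype in the pools as a whole.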

How the data were processed

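The authors made the deposited matrices with Cell Ranger 7.1.0, per the file headers, which hold unnormalized UMI counts for each gene in each barcode. The submitters' processing notes name mm10. The annotation and the counting of intronic reads are not given in the sources used here. Genes were 32285, of which 32158 had a position in GENCODE M21 (GRCm38), and symbols shared by several identifiers were kept apart.

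Members, gene lists and comparisons were chosen with earlier results of these data known. The cells were selected as described, 136 humWT and 178 humdG barcodes fell out for few genes and 268 and 258 for mitochondrial UMIs. Red blood cells had at least 20% haemoglobin UMIs. Scrublet (scanpy 1.11.5) called 1 humWT and 0 humdG cells as doublets, too few to have worked, so no cell was removed for it. In the alternatives, the top 5% of doublet scores were taken out (9 and 0 fibre cells), or fibre cells with over 2% of UMIs from other cell types (63 and 13).

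Counts were summed per library and cell set (Python 3.11.15, numpy 2.4.6, scipy 1.17.1). Genes with at least 20 UMIs over the fibre cells of both libraries were tested for size only, and called when past 2-fold. A gene with 0 UMIs in 1 library took 0.5 UMI for its ratio in the list medians. Named were all genes of the lists, the 10 highest and 10 lowest humdG to humWT ratios and the 15 highest fibre to other ratios among genes with at least 100 UMIs. Short transcripts, gene span and the scaling without *Gm42418* and *AY036118* were added after seeing the data. The miRNA and promoter sequences were from RefSeq on GRCm38.p6. A few genes and 1 promoter site that these rules choose are not reported here.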

Additional observations from a re-analysis of the deposited data

Results flagged for a closer look

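A strong signal of sarcomere transcripts appeared in cells that the fibre comparisons do not use. In the short-rich cells outside the gate, the 10 short sarcomere transcripts reached 9175 CPM in humWT and 11725 CPM in humdG. They were at 1536 and 1212 CPM in fibre cells, at 723 and 511 CPM in myogenic precursors, at 384 and 192 CPM in all other cells and at 334 and 141 CPM in red blood cells. Short-rich cells were chosen on these transcripts, so the level describes them and is no test.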

How the results depend on the processing

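No paired analysis was possible because each genotype was 1 library, and for the same reason no replicate could be left out. Values of the results that answer a comparison are given where they moved beyond counting error or, for counts, by over 1.5 times. Of these 40 moved and 96 did not, and among the latter were the humWT to humdG share of fibre cells and the number of apparatus genes high in fibre cells under every alternative run for them, with ranges of 3.93 to 6.08 and 54 to 76. With a gate of at least 0.25% there were 709 humWT fibre cells, and the median log2 ratio of humdG to humWT of the apparatus was 0.32 and that of its summed UMIs 0.37. With at least 1% there were 254 and 66 fibre cells, 500 genes past 2-fold lower in humdG and an apparatus median of 0.28. With 5 of 5 gate genes there were 211 and 39 cells, and the median and sum were 0.59 and 0.58. With at least 3 of 5 there were 174 humdG cells, and they were 0.080 and 0.091. Scaled by the median of gene ratios, 527 genes were past 2-fold higher in humdG, with a median of -0.071 and a sum of 0.0057. Without *Gm42418* and *AY036118* they were 0.0060 and 0.083. As a mean of CPM per cell the median was 0.091. Thinned to 1000 UMIs per cell, 1868 genes were higher and the median was 0.019. With the red blood cell background subtracted, 1692 were higher, 1564 lower and the sum was 0.36. In cells with *Xist* 378 were higher and 377 lower, and in cells with Y-linked UMIs 529 were lower, with a median of -0.16 and a sum of 0.13. Among genes with at least 100 UMIs, 154 were higher and 181 lower in humdG, 180 were higher in fibre cells and the apparatus median was 0.25. With all genes that had a UMI, the numbers were 5185, 1861, 760 and 0.25. With red blood cells in place of all other cells, 5295 genes were past 2-fold higher in fibre cells. The slow share in humWT was 69.2% over the 3 cells with at least 30 isoform UMIs, and 30% in the 1 such humdG cell. Of the values of single lists and genes, 205 moved and 596 did not. Medians of several lists changed sign, and the ranges for thick filament, thin filament and Z-disc genes are given above. Those of the junction, fusion, regulator, dystrophin complex, slow, fast, and imprinted and noncoding lists, not printed here, also changed sign. With the red blood cell background subtracted, *Col4a4*, *Lrmda*, *Dkk2*, *Epha6*, *Pdgfra*, *Rhoj* and *Col14a1* gave no value, as their humdG level was below that background. The smaller sets and the changed gene filters have fewer or more genes tested by construction, and the cause of the other shifts was not tested.

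Depth limits the humdG side most, where 101 cells held 256672 UMIs and many named genes had under 10. A second library of each genotype was not analysed here, so no spread between embryos is known, and fewer fibres cannot be told apart from fewer fibres recovered.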

Other observations

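Cell groups next to the fibre set had values that belong to no comparison above. Cells that met the gate but held a *Pax7* UMI were 18 in humWT and 6 in humdG, which is 3.94% and 5.61% of all cells past the other limits, and their gate genes took a median of 1.07% and 1.29% of UMIs. Myogenic precursors were far deeper than fibre cells, with medians of 18542 and 18714 UMIs and 4243 and 4216 genes, and *Myog* was at 123 and 106 CPM in them. Of 10 genes on a heart muscle list, 2 reached 20 UMIs in fibre cells, where 9587 of all 32285 genes did, so this count does not set the list apart. In each library 6 of the 10 had 0 UMIs. The list summed to 51.7 CPM in humWT and 31.2 CPM in humdG fibre cells, against 22.3 and 22.9 CPM in other cells. Its most abundant gene was *Ryr2*, the cardiac calcium release channel, at 23.7 and 15.6 CPM.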
